A study of Mus musculus with 15 samples.

Results

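The 45 genes described here are cell cycle and DNA replication genes, listed by symbol and split by the step of the cell cycle they serve. They comprise 14 S-phase genes, 4 G1/S cyclins (Ccnd1, Ccnd2, Ccne1 and Ccne2) and 27 mitotic genes. Of the 45 genes, 44 were measured among the 17097 genes of the series that had a probe set naming 1 gene. Where a gene had several such probe sets, the brightest on average over the 15 arrays was used. Ccnb1, a cyclin B gene, was not analysed here. RNA came from PDGFRa-positive fibroblasts, collected by flow cytometry from kidneys of C57BL/6 mice, and was amplified and hybridised to 15 arrays. There were 5 groups of 3 arrays: uninjured kidney, folic acid-induced acute kidney injury after 3, 7 and 14 days, and unilateral ureteral obstruction (UUO) after 14 days. The injured mice were adults. All groups share the strain and the sort, and the labels name no modified allele and no vehicle or sham operation for the uninjured kidneys. Folic acid in high dose injures the tubules, and UUO blocks the urine flow of one kidney and is a model of chronic fibrosis. The study compared gene expression in fibroblasts across these acute and chronic injuries over time.

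A cell that divides first commits in G1, where cyclin D and then cyclin E drive the phosphorylation of the retinoblastoma protein and release E2F transcription factors. In S phase the MCM helicase unwinds DNA at licensed origins while ribonucleotide reductase and thymidylate enzymes supply the building blocks. In G2 and mitosis cyclins A and B with Cdk1, the Aurora and Polo kinases, kinetochore proteins and spindle motors separate the chromosomes, and the anaphase-promoting complex destroys the mitotic proteins afterwards. In the kidney, fibroblasts are mostly quiescent and are known to enter the cycle after injury.

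All values are log2 intensities as deposited, and a level can be compared between arrays for one gene but not between genes. A gene was tested if at least 3 arrays read it above their own 40th percentile, which fell between 4.54 and 4.69. That left 13523 genes and 39 of the 44 measured members. Cdc6, Ccne2, Aurkb, Bub1 and Kif23 were too dim and were not tested, and Cdca8 would not have passed without its day 3 arrays. "Rose" and "fell" are used for an adjusted p under 0.05 in limma's moderated test with Benjamini-Hochberg adjustment over the 13523 genes. No detection call was used, and a fold is understated where a group reads near background. The sources used here do not tell whether a group's 3 arrays are separate mice, so a p-value reflects the spread among these samples alone, and that spread may be technical. In such bulk RNA, a change in the share of dividing cells and a change in RNA per cell cannot be told apart.

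The arrays of a group correlated with each other at r between 0.918 and 0.985 over the genes measured, and no 2 arrays were identical. The labelled cell type was checked against its markers. Pdgfra itself averaged 6.01 ± 0.38 (SD, n = 3) in uninjured kidney, 6.69 ± 0.55 at day 3, 5.50 ± 1.00 at day 7, 5.28 ± 1.20 at day 14 and 5.99 ± 0.48 after UUO. The collagen gene Col1a1 averaged 6.81 ± 0.08 in uninjured kidney and between 11.17 and 12.23 in the injured groups. Cdh11, a cadherin of activated fibroblasts, averaged 4.05 ± 0.31 in uninjured kidney, below the 40th percentile of the arrays. Markers of proximal tubule, distal nephron and macrophages were present too and differed between the groups, as given with the results they move with.

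Many mitotic genes rose from uninjured kidney to folic acid day 3, while few S-phase genes passed the test, although 12 of the 14 measured read higher. Of the 23 mitotic genes tested, 12 rose and none fell, and of the 13 S-phase genes tested, Rrm2 and Mcm4 rose. The cyclin D1 gene Ccnd1 fell. In all, 14 of the 39 members tested rose and 1 fell, against 17.0% of all genes tested called in this comparison, 10.6% of them higher and 6.39% lower. Without adjustment, 21 members had a p under 0.05 and a higher level at day 3, of which 19 were mitotic and 2 were S-phase genes. For counts at an unadjusted p, here and below, the share of all genes was not computed, so they are a description.

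Over the members measured, the median log2 change at day 3 was 0.95 for the 26 mitotic genes, 0.32 for the 14 S-phase genes and 0.26 for the 6 MCM subunits, beside -0.0037 for all genes measured. All 3 day 3 arrays lay above all 3 uninjured arrays for 20 of 26 mitotic genes and for 5 of 14 S-phase genes. Among all genes measured, 19.9% were separated in that direction. The difference between the classes was not tested. Each day 3 array had between 22 and 24 of the 26 mitotic genes above the gene's highest uninjured value, and between 7 and 11 of the 14 S-phase genes. For this count the share of all genes was not computed. The classes differ in size, so the spread of these counts over the arrays was not compared between them. The heat map shows all members on each array.

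**Figure D1:**
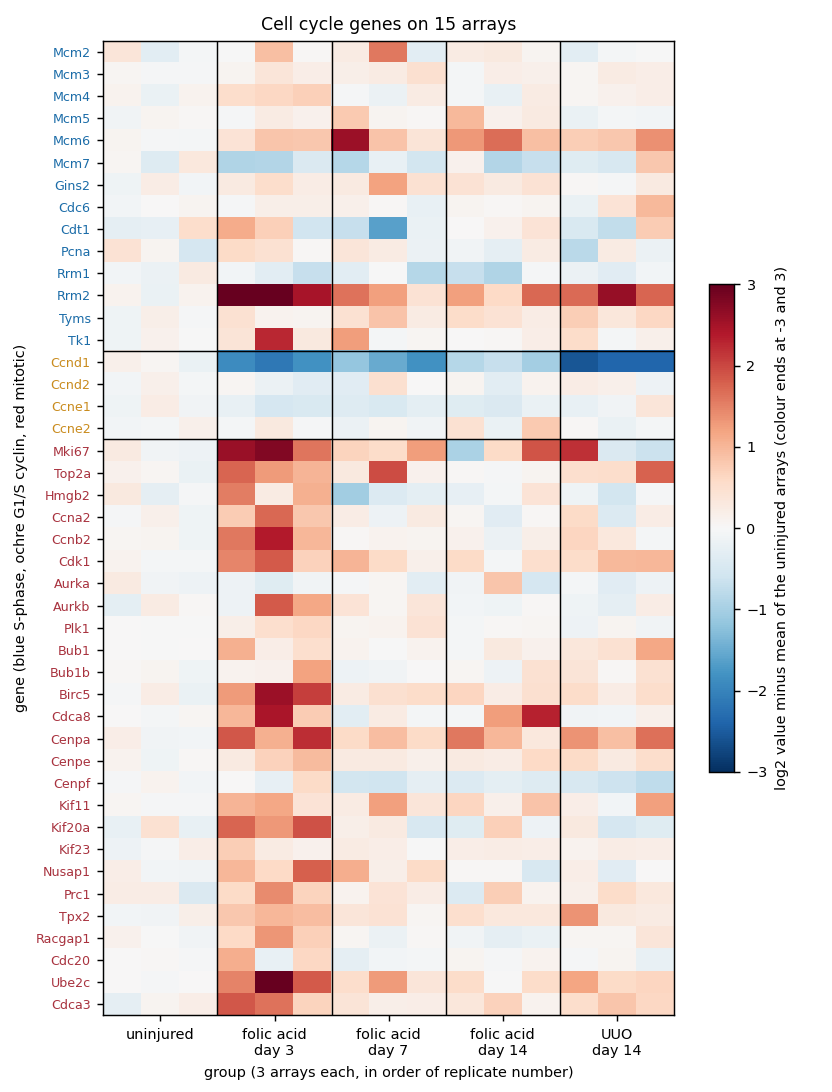
Each row is a member and each column is 1 of the 15 arrays, and colour gives the log2 value minus the mean of the 3 uninjured arrays, red for higher and blue for lower, with the scale ending at -3 and 3. Gene names are blue for S-phase, ochre for G1/S cyclins and red for mitotic genes. The 3 day 3 columns are red for most mitotic rows, Rrm2 is red in every injured column, and Ccnd1 is blue in every injured column.

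Averaged over the class, the mitotic genes lay 1.06 ± 0.10 (SD, n = 3 arrays) above uninjured kidney at day 3, 0.22 ± 0.08 at day 7, 0.21 ± 0.10 at day 14 and 0.29 ± 0.16 after UUO, in log2 units. The 3 day 3 arrays lay at 1.00, 1.18 and 0.99, apart from all other injured arrays, the highest of which lay at 0.41 after UUO. The S-phase genes averaged 0.44 ± 0.20 at day 3, 0.25 ± 0.22 at day 7, 0.24 ± 0.11 at day 14 and 0.27 ± 0.20 after UUO. Without Rrm2 the S-phase average at day 3 was 0.25 ± 0.20. The S-phase averages of the 4 injured groups therefore overlapped, and the mitotic average of day 3 did not overlap with that of any other group.

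**Figure D2:**
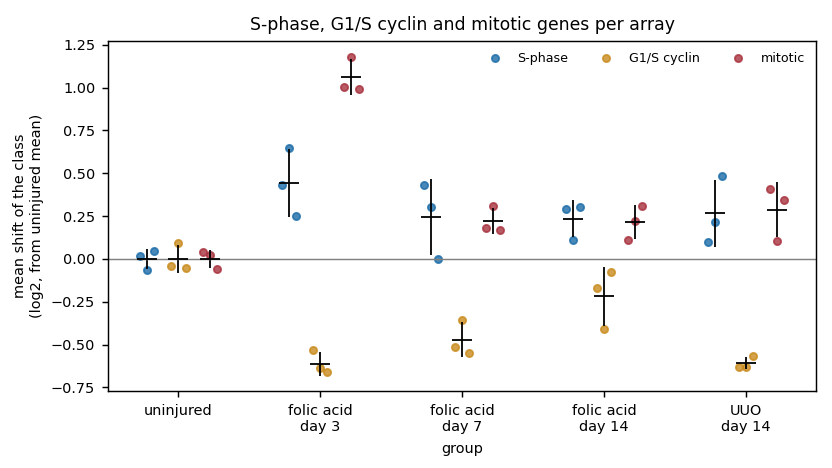
Points are arrays, placed by the mean over the genes of a class of the log2 difference from the uninjured mean, and bars give the mean ± SD of 3 arrays. Mitotic genes (red, 26 genes) stand at 1.06 at folic acid day 3 and between 0.21 and 0.29 in the other injured groups. S-phase genes (blue, 14 genes) stand between 0.24 and 0.44 in the injured groups. G1/S cyclins (ochre, 4 genes) average below 0 in every injured group, and Ccnd1 makes up most of that average. The median log2 change of the 4 cyclins was -0.28 at day 3, -0.22 at day 7, -0.18 at day 14 and -0.04 after UUO.

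S-phase and mitotic genes are known to differ in their promoters. E2F factors bind near the start of many S-phase genes. Many mitotic genes instead carry a cell cycle genes homology region (CHR), bound by MuvB complexes, after CCAAT boxes bound by NF-Y. Windows ran from 250 bases before to 50 bases after the first listed start of each gene in RefSeq (GRCm38.p6). They matched 36 of the 45 members. Ccnd1, Ccnd2, Ccne2, Mcm4, Gins2, Ccna2, Aurkb, Kif20a and Tpx2 were not matched. The windows below belong to the 3 S-phase and the 3 mitotic members with the smallest p of the F test over the 5 groups among those matched. Of these, Tyms and Mcm6 did not pass the F test (adjusted p = 0.159 and 0.176). The windows are examples and do not stand for their classes. They are given 5′ to 3′ on the gene's strand, and capitals mark matches on either strand to CCAAT, to a CHR, which was TTTGAA or the palindrome TTTAAA, or to an E2F-type motif, which was TTGGCGC or the variant TTCGCGC, the variant TTCCCGC or the variant TTGCCGC. Overlapping matches share one run of capitals.
Rrm2, chr12:24708004-24708303, plus strand: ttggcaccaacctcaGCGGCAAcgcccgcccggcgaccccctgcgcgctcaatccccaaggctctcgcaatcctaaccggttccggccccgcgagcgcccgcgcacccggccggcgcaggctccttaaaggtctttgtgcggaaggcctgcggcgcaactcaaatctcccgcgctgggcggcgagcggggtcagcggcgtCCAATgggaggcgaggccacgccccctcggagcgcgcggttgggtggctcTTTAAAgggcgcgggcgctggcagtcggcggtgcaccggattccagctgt
Tyms, chr5:30073576-30073875, minus strand: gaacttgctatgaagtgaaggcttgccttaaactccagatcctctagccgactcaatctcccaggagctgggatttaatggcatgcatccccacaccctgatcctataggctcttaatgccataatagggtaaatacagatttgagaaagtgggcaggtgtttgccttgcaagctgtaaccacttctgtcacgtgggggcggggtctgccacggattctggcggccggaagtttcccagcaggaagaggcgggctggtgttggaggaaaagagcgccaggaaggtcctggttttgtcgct
Mcm6, chr1:128359656-128359955, minus strand: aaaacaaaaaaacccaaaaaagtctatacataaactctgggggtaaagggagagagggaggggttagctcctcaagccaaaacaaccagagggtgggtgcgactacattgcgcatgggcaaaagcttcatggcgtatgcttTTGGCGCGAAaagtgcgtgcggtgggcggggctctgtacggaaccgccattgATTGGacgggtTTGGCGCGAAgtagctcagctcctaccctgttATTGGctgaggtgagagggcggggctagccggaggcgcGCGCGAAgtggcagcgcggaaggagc
Birc5, chr11:117848987-117849286, plus strand: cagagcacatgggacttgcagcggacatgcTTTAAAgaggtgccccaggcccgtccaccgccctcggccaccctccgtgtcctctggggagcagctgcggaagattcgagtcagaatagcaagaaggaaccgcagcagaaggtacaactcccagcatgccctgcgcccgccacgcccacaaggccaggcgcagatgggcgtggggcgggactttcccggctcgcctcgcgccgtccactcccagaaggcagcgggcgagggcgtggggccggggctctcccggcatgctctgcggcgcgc
Ccnb2, chr9:70421505-70421804, minus strand: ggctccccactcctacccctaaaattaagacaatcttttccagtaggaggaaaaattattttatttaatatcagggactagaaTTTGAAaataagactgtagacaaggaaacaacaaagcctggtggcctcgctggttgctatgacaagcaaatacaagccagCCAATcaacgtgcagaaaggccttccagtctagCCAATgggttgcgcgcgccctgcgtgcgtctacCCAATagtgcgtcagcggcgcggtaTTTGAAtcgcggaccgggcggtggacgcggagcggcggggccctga
Racgap1, chr15:99651607-99651906, minus strand: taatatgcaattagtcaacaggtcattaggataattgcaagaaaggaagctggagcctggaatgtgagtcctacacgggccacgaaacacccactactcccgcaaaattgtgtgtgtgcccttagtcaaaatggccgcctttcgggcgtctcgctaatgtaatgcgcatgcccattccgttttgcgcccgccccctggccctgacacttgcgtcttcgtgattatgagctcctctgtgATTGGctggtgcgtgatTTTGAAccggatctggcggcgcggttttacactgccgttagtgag

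The Mcm6 window held 5 E2F-type matches and 2 CCAAT matches, and the Rrm2 window held 1 match of each kind. The Ccnb2 window held 3 CCAAT matches and 2 CHR matches, Racgap1 held 1 of each, Birc5 held 1 CHR match and Tyms held none. Among the members matched, a CHR match was found in 91.3% of the 23 mitotic windows and 33.3% of the 12 S-phase windows, against 27.8% of all 27025 windows. An E2F-type match was found in 66.7% of the S-phase windows, 13.0% of the mitotic windows and 9.69% of all windows. CCAAT was found in 66.7% of the S-phase windows, 91.3% of the mitotic windows and 37.9% of all windows. These shares describe letters only: a match is not a measured binding site.

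Of the S-phase enzymes of nucleotide supply, Rrm2 rose and the others did not pass. Rrm2 encodes the small subunit of ribonucleotide reductase, whose level limits the enzyme and is tied to S phase. It read 4.93, 4.64 and 4.94 on the uninjured arrays, 8.14, 7.89 and 7.31 at folic acid day 3, 6.47, 6.07 and 5.27 at day 7, 6.07, 5.43 and 6.56 at day 14 and 6.54, 7.44 and 6.57 after UUO. Every injured array lay above every uninjured array, the day 3 arrays were the highest of the folic acid series, and 1 UUO array reached their range. Rrm2 rose 7.71-fold at day 3 (log2 change 2.95 ± 0.37 (SE), adjusted p = 0.000197), the highest log2 change of any member in that comparison. It also rose after UUO, by 4.05-fold (log2 change 2.02 ± 0.37, adjusted p = 0.00263), and read higher but did not pass at day 7 (1.10 ± 0.37, adjusted p = 0.0708) and day 14 (1.19 ± 0.37, adjusted p = 0.0817). With the mean of proximal tubule markers, lowest after UUO, in the fit, the UUO call ended (2.28, adjusted p = 0.0941), while the day 3 call held. The UUO rise rests on the probe set used. The other probe set of Rrm2, above the percentile on 4 arrays, changed by 0.10 after UUO, against 2.02.

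The other enzymes of nucleotide supply moved less. Rrm1, the large subunit of the same reductase, changed by -0.36 ± 0.26 at day 3 with overlapping arrays. Tyms, thymidylate synthase, changed by 0.22 ± 0.18 at day 3 and 0.57 ± 0.18 after UUO, where all 3 arrays lay above the uninjured ones without passing (adjusted p = 0.0511). Tk1, a thymidine kinase of S phase, read 4.89, 6.74 and 4.79 at day 3 against 4.37, 4.63 and 4.48 in uninjured kidney. A single day 3 array carried most of its log2 change of 0.98 ± 0.46.

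The MCM subunits form the replicative helicase and showed no common shift. Mcm2 read 5.67, 4.98 and 5.25 on the uninjured arrays, 5.28, 6.21 and 5.33 at folic acid day 3, 5.55, 6.87 and 4.98 at day 7, 5.54, 5.60 and 5.38 at day 14 and 4.99, 5.25 and 5.28 after UUO. Single arrays at day 3 and day 7 were high and the groups overlapped. The log2 change at day 3 was 0.31 ± 0.39 (adjusted p = 0.642). Mcm4 was the subunit that rose at day 3.

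Mcm4 read 5.45, 5.56 and 5.65 at folic acid day 3 against 5.04, 4.73 and 5.03 in uninjured kidney, and 4.90, 4.76 and 5.19 at day 7, 4.87, 4.71 and 5.17 at day 14 and 5.00, 5.05 and 5.13 after UUO. The day 3 arrays lay above every other array of the series for this gene. Its log2 change at day 3 was 0.62 ± 0.16 (1.54-fold, adjusted p = 0.0169). The call ended without day 3 replicate 3 (0.58, adjusted p = 0.0572) and without uninjured replicate 2 (0.52, adjusted p = 0.0775).

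Mcm3, Mcm5 and Mcm6 changed by 0.22, 0.11 and 0.69 at day 3, none of them called. Mcm6 lay above the uninjured arrays on every injured array, with log2 changes of 1.27 at day 7, 1.30 at day 14 and 0.98 after UUO that did not pass (adjusted p = 0.0762, 0.104 and 0.148). Mcm7 went the other way, with all 3 day 3 arrays below the uninjured ones and a log2 change of -0.74 ± 0.36 (adjusted p = 0.177).

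Pcna, the sliding clamp of DNA polymerase delta, gave no separation of the groups. It read 7.81, 7.46 and 6.87 on the uninjured arrays, 7.95, 7.84 and 7.42 at folic acid day 3, 7.75, 7.63 and 7.20 at day 7, 7.27, 7.11 and 7.62 at day 14 and 6.57, 7.63 and 7.21 after UUO. The day 3 change was 0.36 ± 0.30 (adjusted p = 0.450) and the UUO change was -0.24 ± 0.30. Gins2, a subunit of the helicase-associated GINS complex, changed by 0.34 at day 3, and Cdt1, which loads the MCM ring, changed by 0.41. Cdc6, its partner in loading, was dim on nearly all arrays and changed by 0.10, without a test.

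The mitotic cyclins and their kinase rose at day 3. Cyclin B2 (Ccnb2), which activates Cdk1 at the entry into mitosis, read 4.66, 4.67 and 4.46 on the uninjured arrays, 6.18, 6.97 and 5.59 at folic acid day 3, 4.65, 4.71 and 4.67 at day 7, 4.73, 4.42 and 4.77 at day 14 and 5.25, 4.91 and 4.54 after UUO. All 3 day 3 arrays stood above the other 12 arrays. Ccnb2 rose 3.13-fold (log2 change 1.65 ± 0.28, adjusted p = 0.00187). Its log2 change was 0.08 at day 7, 0.04 at day 14 and 0.30 after UUO, none of which passed.

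Cyclin A2 (Ccna2), which acts from S phase to early mitosis, read 7.11, 8.06 and 7.15 at folic acid day 3 against 6.32, 6.50 and 6.22 in uninjured kidney, and 6.56, 6.20 and 6.60 at day 7, 6.41, 5.99 and 6.39 at day 14 and 6.93, 5.92 and 6.56 after UUO. The lowest day 3 array lay above every other array, with 1 UUO array close below. Ccna2 rose 2.14-fold at day 3 (log2 change 1.10 ± 0.28, adjusted p = 0.0196). That call ended without day 3 replicate 2 (0.79, adjusted p = 0.0704), uninjured replicate 1 (1.09, adjusted p = 0.0540) or uninjured replicate 3 (1.04, adjusted p = 0.0696).

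Cdk1, the kinase of mitotic entry, read 5.95, 5.79 and 5.77 on the uninjured arrays, 7.31, 7.67 and 6.54 at folic acid day 3, 6.86, 6.42 and 5.98 at day 7, 6.42, 5.77 and 6.35 at day 14 and 6.38, 6.81 and 6.83 after UUO. The arrays of day 3, day 7 and UUO lay above all uninjured arrays, and the third day 3 array lay within the range of the later groups. Cdk1 rose 2.52-fold at day 3 (log2 change 1.34 ± 0.30, adjusted p = 0.00869), while the UUO change of 0.84 ± 0.30 did not pass (adjusted p = 0.0739). With the proximal tubule marker mean in the fit, the day 3 call ended (1.58, adjusted p = 0.0518).

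**Figure D3:**
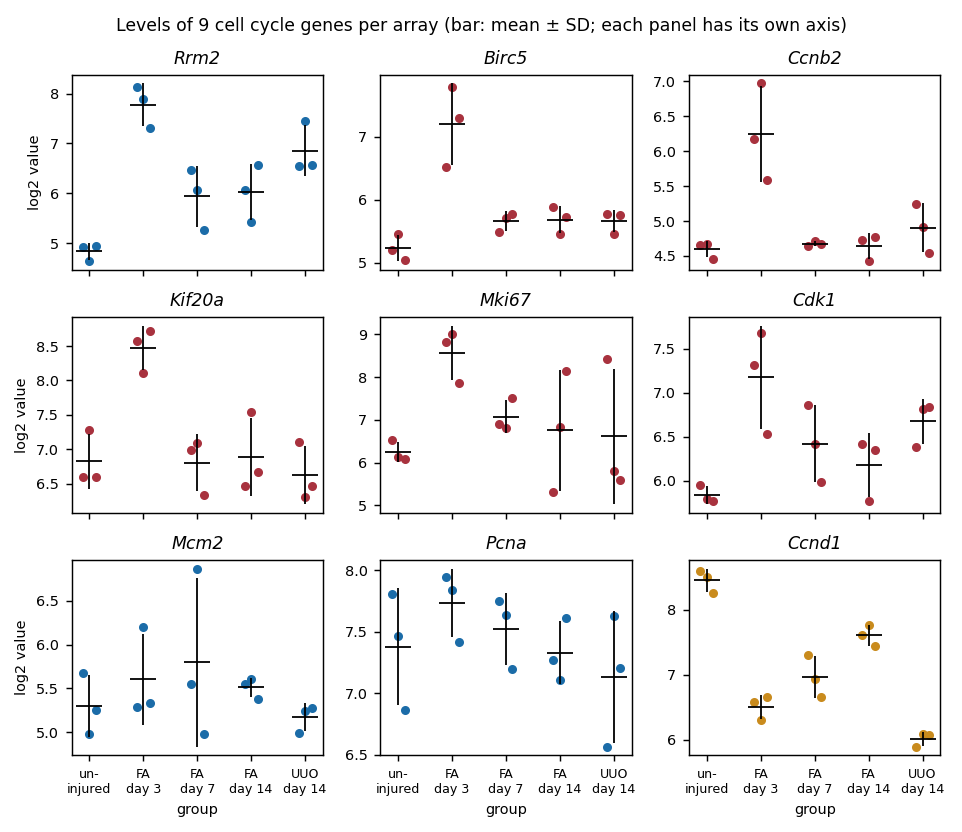
Each panel plots the log2 value of 1 gene on every array by group, with its own axis, and bars give the mean ± SD of 3 arrays. Rrm2, Birc5, Ccnb2 and Kif20a have all 3 day 3 arrays above all uninjured arrays, Mcm2 and Pcna overlap in all groups, and Ccnd1 has every injured array below every uninjured array.

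The proliferation markers Mki67 and Top2a read high at day 3 and narrowly missed the threshold as reported, and each passed in 9 of 26 alternative settings. Mki67, the gene of the Ki-67 protein that coats mitotic chromosomes, read 6.53, 6.13 and 6.09 on the uninjured arrays, 8.83, 9.02 and 7.85 at folic acid day 3, 6.91, 6.80 and 7.51 at day 7, 5.30, 6.83 and 8.13 at day 14 and 8.43, 5.81 and 5.60 after UUO. Every day 3 array lay above the uninjured arrays, but single arrays at day 14 and after UUO were as high and their partners were low. The log2 change at day 3 was 2.32 ± 0.75, a 4.98-fold difference with an adjusted p of 0.0510. The SD of Mki67 was 1.42 at day 14 and 1.58 after UUO, against 0.24 in uninjured kidney.

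Top2a, the topoisomerase that untangles sister chromatids, read 6.24, 5.78 and 5.52 at folic acid day 3 against 4.63, 4.56 and 4.30 in uninjured kidney, and 4.79, 6.45 and 4.64 at day 7, 4.52, 4.47 and 4.57 at day 14 and 5.01, 5.03 and 6.27 after UUO. Day 3 arrays lay above all uninjured arrays, and 1 array at day 7 and 1 after UUO were as high as any of them. Its log2 change at day 3 was 1.34 ± 0.44 (adjusted p = 0.0532), while its other probe sets changed by -0.15 and -0.18. Hmgb2, a chromatin protein of dividing cells, changed by 0.95 ± 0.32 (adjusted p = 0.0577) with 1 day 3 array inside the uninjured range, although it passed the F test over the 5 groups (adjusted p = 0.0376).

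Of the genes of the chromosomal passenger complex and the kinetochore, Birc5, Cenpa and Cenpe rose at day 3. Birc5 encodes survivin, which places the Aurora B kinase at the centromere. It read 5.20, 5.45 and 5.04 on the uninjured arrays, 6.51, 7.79 and 7.30 at folic acid day 3, 5.48, 5.71 and 5.78 at day 7, 5.88, 5.45 and 5.72 at day 14 and 5.78, 5.46 and 5.76 after UUO. The 3 day 3 arrays stood apart from the other 12, which all lay between 5.04 and 5.88. Birc5 rose 3.92-fold (log2 change 1.97 ± 0.26, adjusted p = 0.000349), and its later changes of 0.43, 0.45 and 0.44 at day 7, day 14 and after UUO did not pass.

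Cenpa, the histone variant that marks centromeres, read 5.44, 4.65 and 5.80 at folic acid day 3 against 3.76, 3.47 and 3.50 in uninjured kidney, and 4.15, 4.49 and 4.16 at day 7, 5.15, 4.58 and 3.89 at day 14 and 4.91, 4.48 and 5.24 after UUO. Uninjured arrays were dim, and every injured array lay above them. Cenpa rose 3.30-fold at day 3 (log2 change 1.72 ± 0.33, adjusted p = 0.00407) and 2.47-fold after UUO (1.30 ± 0.33, adjusted p = 0.0185). The UUO call ended without UUO replicate 1 (1.28, adjusted p = 0.05005), UUO replicate 3 (1.12, adjusted p = 0.0742), uninjured replicate 2 (1.25, adjusted p = 0.0642) or uninjured replicate 3 (1.26, adjusted p = 0.0610).

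Cenpe, a kinetochore motor, read 5.70, 6.12 and 6.39 at folic acid day 3 against 5.54, 5.31 and 5.46 in uninjured kidney, and 5.70, 5.70 and 5.58 at day 7, 5.70, 5.67 and 6.03 at day 14 and 6.01, 5.70 and 5.96 after UUO. All injured arrays lay above the uninjured arrays by small amounts. It rose 1.55-fold at day 3 (log2 change 0.63 ± 0.18, adjusted p = 0.0279), a call that ended without any 1 of day 3 replicates 2 and 3 and uninjured replicates 2 and 3 (0.61, 0.47, 0.57 and 0.64 in that order, adjusted p between 0.0696 and 0.103).

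Cenpf, a large kinetochore protein, went against the class after UUO. It read 5.04, 5.17 and 4.99 on the uninjured arrays, 5.08, 4.82 and 5.63 at folic acid day 3, 4.51, 4.48 and 4.79 at day 7, 4.65, 4.77 and 4.69 at day 14 and 4.58, 4.44 and 4.31 after UUO. The arrays of day 7, day 14 and UUO lay below all uninjured ones, while the day 3 arrays overlapped with them. Cenpf fell after UUO, by 1.54-fold (log2 change -0.62 ± 0.18, adjusted p = 0.0352). The call ended without UUO replicate 2 or 3 or any 1 of the uninjured replicates (log2 change between -0.66 and -0.56, adjusted p between 0.0707 and 0.116), and the 2 other probe sets of Cenpf changed by 0.09 and 0.25.

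Cdca8, the borealin subunit of the passenger complex, changed by 1.40 ± 0.51 at day 3 (adjusted p = 0.0799), and at day 14 it read 4.24, 5.55 and 6.59, with 1 array in the uninjured range and 2 above it. The Aurora kinases A and B changed by -0.20 and 0.95, the second untested. Plk1, the Polo kinase, changed by 0.44 ± 0.14 with no overlap of the arrays (adjusted p = 0.0556). The checkpoint genes Bub1 and Bub1b changed by 0.59 and 0.48, Bub1 untested.

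Of the genes of the spindle and of cytokinesis, Kif20a, Nusap1, Tpx2 and Racgap1 rose at day 3. Kif20a, a kinesin of the central spindle, read 6.59, 7.28 and 6.60 on the uninjured arrays, 8.58, 8.11 and 8.72 at folic acid day 3, 6.99, 7.09 and 6.33 at day 7, 6.46, 7.54 and 6.67 at day 14 and 7.11, 6.31 and 6.46 after UUO. The day 3 arrays lay above the other 12, which overlapped with each other. It rose 3.14-fold (log2 change 1.65 ± 0.33, adjusted p = 0.00492).

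Racgap1, which sets the site of the cleavage furrow, read 5.27, 6.00 and 5.38 at folic acid day 3 against 4.79, 4.65 and 4.57 in uninjured kidney, and 4.72, 4.50 and 4.69 at day 7, 4.55, 4.40 and 4.48 at day 14 and 4.73, 4.72 and 5.02 after UUO. Its lowest day 3 array lay above every other array. Racgap1 rose 1.84-fold (log2 change 0.88 ± 0.18, adjusted p = 0.00533).

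Nusap1, which bundles spindle microtubules, read 6.13, 5.73 and 6.95 at folic acid day 3 against 5.33, 5.05 and 5.04 in uninjured kidney, and 6.22, 5.32 and 5.73 at day 7, 5.18, 5.17 and 4.67 at day 14 and 5.33, 4.80 and 5.16 after UUO. The day 3 arrays lay above the uninjured ones, and the day 7 arrays overlapped with both. It rose 2.18-fold (log2 change 1.13 ± 0.30, adjusted p = 0.0235). The call ended without day 3 replicate 3 (0.79, adjusted p = 0.0813), uninjured replicate 2 (1.08, adjusted p = 0.0769) or uninjured replicate 3 (1.08, adjusted p = 0.0754).

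Tpx2, which activates Aurora A on the spindle, read 5.18, 5.34 and 5.29 at folic acid day 3 against 4.28, 4.26 and 4.53 in uninjured kidney, and 4.72, 4.80 and 4.42 at day 7, 4.86, 4.67 and 4.67 at day 14 and 5.70, 4.65 and 4.60 after UUO. The 3 day 3 values lay close together, and the highest value of all came from 1 UUO array. It rose 1.88-fold (log2 change 0.91 ± 0.24, adjusted p = 0.0218), a call that ended without day 3 replicate 2 or 3 or uninjured replicate 1 or 2 (log2 change 0.88, 0.90, 0.87 and 0.87, adjusted p between 0.0574 and 0.0763). Kif11, the kinesin that pushes the poles apart, and Prc1, which bundles the midzone, had all day 3 arrays above the uninjured ones and changed by 0.87 ± 0.35 and 0.89 ± 0.30 without passing. Kif23, the partner of Racgap1, was dim and changed by 0.38.

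The ubiquitin ligase genes closed the list. Ube2c, the ubiquitin-conjugating enzyme of the anaphase-promoting complex, read 6.11, 6.05 and 6.11 on the uninjured arrays, 7.58, 9.26 and 7.93 at folic acid day 3, 6.61, 7.37 and 6.44 at day 7, 6.65, 6.08 and 6.64 at day 14 and 7.27, 6.66 and 6.74 after UUO. Day 3 arrays were the highest, with the second array far above its partners, and all injured arrays but 1 at day 14 lay above the uninjured ones. Ube2c rose 4.49-fold at day 3 (log2 change 2.17 ± 0.38, adjusted p = 0.00215).

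Cdca3, an adaptor for a ubiquitin ligase that marks the mitotic inhibitor Wee1, read 6.42, 6.20 and 5.25 at folic acid day 3 against 4.29, 4.65 and 4.76 in uninjured kidney, and 4.97, 4.74 and 4.77 at day 7, 4.90, 5.26 and 4.67 at day 14 and 5.09, 5.41 and 5.18 after UUO. The day 3 arrays lay above the uninjured ones, and the third of them overlapped with the later groups. It rose 2.62-fold (log2 change 1.39 ± 0.27, adjusted p = 0.00390). Cdc20, the activator of the anaphase-promoting complex, changed by 0.50 ± 0.25 with overlapping arrays.

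**Figure D4:**
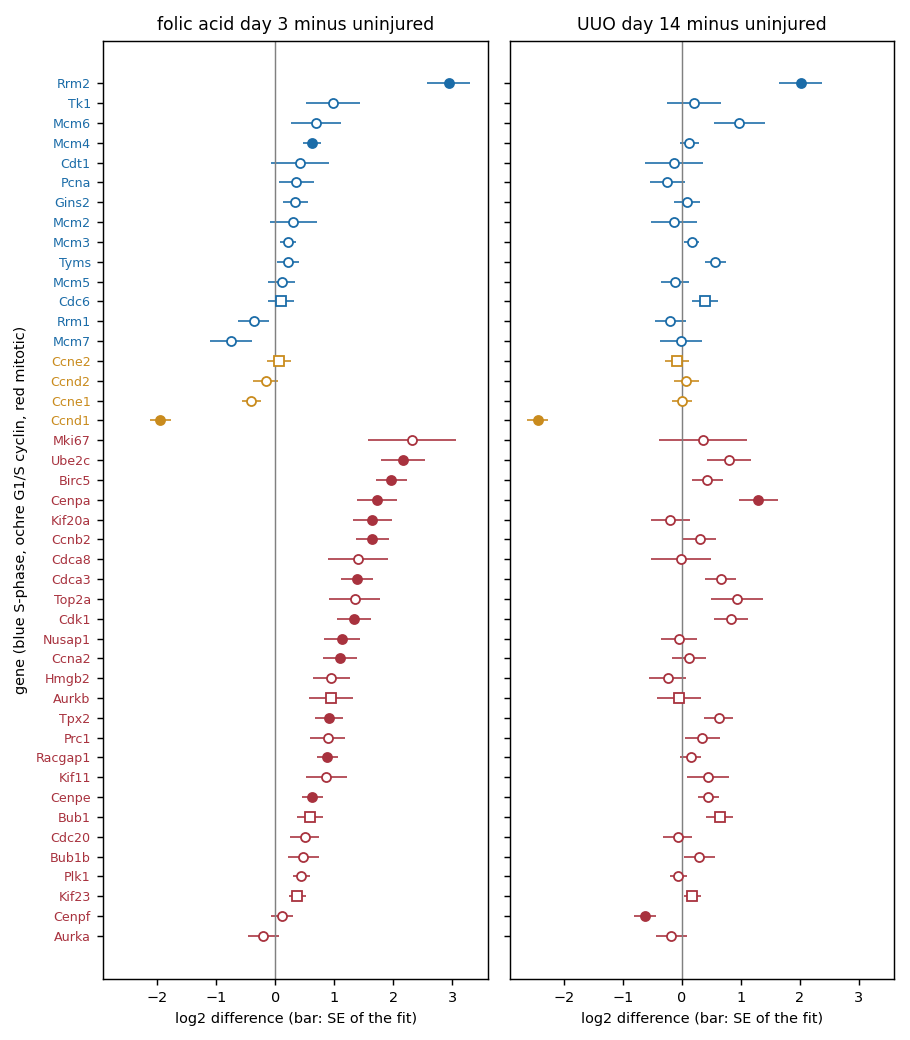
Each point is the log2 difference of 1 member from uninjured kidney, at folic acid day 3 on the left and after UUO on the right, and bars give the SE of the fit. Filled circles passed the test, open circles did not and squares were not tested. The mitotic genes (red) run from -0.20 to 2.32 on the left, with a median of 0.95, and from -0.62 to 1.30 on the right, with a median of 0.30, and Ccnd1 lies at -1.95 and -2.44.

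The G1/S cyclins did not follow the mitotic genes. Cyclin D1 (Ccnd1), which couples growth signals to G1 progression, read 8.60, 8.52 and 8.25 on the uninjured arrays, 6.57, 6.30 and 6.65 at folic acid day 3, 7.30, 6.94 and 6.65 at day 7, 7.61, 7.76 and 7.45 at day 14 and 5.89, 6.09 and 6.07 after UUO. Every injured array lay below every uninjured array, the UUO arrays were the lowest on this probe set but not on the 2 others of the gene, and the folic acid groups stood in the order of the days without overlap between days 3 and 14. Ccnd1 fell at day 3 by 3.86-fold (log2 change -1.95 ± 0.18, adjusted p = 2.61e-05), and at day 7 by 2.81-fold (-1.49 ± 0.18, adjusted p = 0.000218). It also fell at day 14 by 1.80-fold (-0.85 ± 0.18, adjusted p = 0.0153) and after UUO by 5.43-fold (-2.44 ± 0.18, adjusted p = 4.57e-06). The day 14 call ended without day 14 replicate 3 (-0.77, adjusted p = 0.0612), uninjured replicate 1 (-0.78, adjusted p = 0.0609) or uninjured replicate 2 (-0.82, adjusted p = 0.0644).

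Ccnd1 is expressed in tubule epithelium as well as in fibroblasts, and markers of tubule cells moved across the same groups. Averaged over 11 genes, proximal tubule markers read 8.73 in uninjured kidney, 6.41 at day 3, 6.82 at day 7, 8.29 at day 14 and 5.62 after UUO. The mean of 9 distal nephron markers was 8.42, 6.31, 7.13, 8.36 and 5.68 in the same order. The distal nephron mean was not put in a fit, and how much of Ccnd1 came from tubule cells was not tested. In a fit that also held the proximal tubule mean, Ccnd1 still passed in all 4 injured groups against uninjured kidney. The log2 changes of Ccnd1 in that fit were -1.66 at day 3, -1.25 at day 7, -0.79 at day 14 and -2.05 after UUO. Its calls between injured groups ended, for UUO against day 14 (-1.26, adjusted p = 0.100) and from day 3 to day 14 (0.87, adjusted p = 0.0973). In a fit that held the macrophage mean, its calls at days 7 and 14 ended (-0.51 and 0.11, adjusted p = 0.897 and 0.981).

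Cyclin E1 (Ccne1), which drives the entry into S phase, read 6.68, 7.02 and 6.71 on the uninjured arrays, 6.57, 6.29 and 6.34 at folic acid day 3, 6.42, 6.34 and 6.52 at day 7, 6.45, 6.37 and 6.61 at day 14 and 6.57, 6.70 and 7.16 after UUO. All arrays of day 3, day 7 and day 14 lay below the uninjured arrays by small amounts, with log2 changes of -0.40 ± 0.17, -0.38 ± 0.17 and -0.33 ± 0.17 that did not pass (adjusted p = 0.118, 0.167 and 0.295). Ccnd2, cyclin D2, changed by -0.16 at day 3 and 0.08 after UUO. Its 5 other probe sets ran from -1.48 to 0.32 at day 3 and from -0.86 to 0.96 after UUO, so no direction is given for it. Ccne2 was dim in all groups and was not tested.

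At later times few members differed from uninjured kidney. At folic acid day 7 no member rose and Ccnd1 fell, against 11.7% of all genes called, 7.50% higher and 4.19% lower. At day 14 no member rose and Ccnd1 fell, against 5.67% of all genes called, 4.20% higher and 1.47% lower. Without adjustment 5 members had a higher level with p under 0.05 at day 7, all of them S-phase genes. There were 5 at day 14, of which 3 were S-phase and 2 mitotic genes. The shares above are of adjusted calls and cannot be set beside these counts, from which no response of a class is read. The day 7 count was 2 without day 3 replicate 3 or day 7 replicate 1 and 3 without day 7 replicate 3. The day 14 count was 2 without day 7 replicate 1 or day 14 replicate 1 or 2, and 0 without day 14 replicate 3 or uninjured replicate 1 or 2.

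After UUO, Rrm2 and Cenpa rose and Ccnd1 and Cenpf fell, 4 of 39 members against 16.6% of all genes tested, 9.07% higher and 7.52% lower. The median log2 change was 0.30 for the 26 mitotic genes and 0.11 for the 14 S-phase genes, beside -0.015 for all genes measured. All UUO arrays lay above all uninjured arrays for 9 of 26 mitotic and 4 of 14 S-phase genes, against 18.1% of all genes measured. The count was 2 without UUO replicate 3, uninjured replicate 2 or uninjured replicate 3. Of the 4 calls, Ccnd1 held with the proximal tubule mean in the fit, and Ccnd1 and Rrm2 held with the macrophage mean. On their other probe sets, Rrm2 changed by 0.10 and Cenpa, dim on all arrays there, by -0.11.

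The injured groups were also compared directly with each other. The comparisons with uninjured kidney all share the same 3 uninjured arrays, and the direct comparisons do not use them except for the shared spread. From folic acid day 3 to day 7, Rrm2, Ccnb2, Birc5, Kif20a and Racgap1 fell, 5 of 39 members, against 0.695% of all genes called, 0.422% lower and 0.274% higher. Their log2 changes were -1.84, -1.57, -1.54, -1.67 and -0.91, with adjusted p between 0.0214 and 0.0412. These calls lay close to the threshold: the count was 0 without day 7 replicate 2, and at most 3 without any other array except day 14 replicates 1 and 2. All 5 held with the proximal tubule mean in the fit, and none held with the macrophage mean (adjusted p between 0.220 and 0.938). With the macrophage mean the log2 changes were -2.06 for Rrm2, -1.82 for Ccnb2, -2.39 for Birc5, -0.37 for Kif20a and -1.02 for Racgap1. That mean did not overlap between the groups (5.74 to 6.03 at day 3, 7.74 to 8.67 at day 7), so the fit tells group and marker apart poorly. The median over the 26 mitotic genes was -0.66, 25 of which read lower at day 7, while the S-phase median was 0.03 with 7 of 14 genes lower.

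From day 3 to day 14, 9 members fell and Ccnd1 rose, 10 of 39, against 3.05% of all genes called, 1.83% lower and 1.22% higher. Those that fell were Ccnb2 (-1.61 ± 0.28, adjusted p = 0.0105), Birc5 (-1.52 ± 0.26, adjusted p = 0.00974), Racgap1 (-1.07 ± 0.18, adjusted p = 0.00752), Rrm2 (-1.76), Kif20a (-1.58), Ube2c (-1.80), Nusap1 (-1.26), Ccna2 (-1.18) and Mcm4 (-0.64). The calls of Ccnb2, Birc5, Racgap1 and Ccnd1 held without any 1 of the 15 arrays, and those of Nusap1, Ccna2 and Mcm4 ended without any 1 of 12 of them. With the proximal tubule mean in the fit, the 9 that fell had log2 changes from -1.92 (Rrm2) to -0.44 (Mcm4), and Ccnd1 0.87. With the macrophage mean these ran from -2.88 (Ube2c) to -0.34 (Kif20a), and Ccnd1 had 1.84. Neither marker mean overlapped between day 3 (6.35 to 6.51 and 5.74 to 6.03) and day 14 (6.97 to 9.08 and 7.41 to 8.74). These fits therefore tell group and marker apart poorly. None of the 10 calls held with the proximal tubule mean in the fit (adjusted p between 0.0729 and 0.402) or with the macrophage mean (between 0.0526 and 0.914). None held either without the 3 injured arrays brightest in proximal tubule markers, which leaves 1 array at day 14 (between 0.0832 and 0.597). The count was 5 without day 3 replicate 1, day 14 replicate 1 or day 14 replicate 2. Between days 7 and 14 no member was called (3 had an unadjusted p under 0.05), against 0.0518% of all genes.

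UUO was compared with each folic acid day. Against day 3, Ccnb2, Birc5 and Kif20a were lower after UUO (log2 change -1.34, -1.53 and -1.84, adjusted p = 0.0408, 0.0130 and 0.0165), 3 of 39, against 1.13% of all genes, 0.606% lower and 0.525% higher. Without UUO replicate 2 none of the 39 was called, without day 3 replicate 1 or UUO replicate 3 the count was 1, and without day 3 replicate 2 it was 5. Birc5 and Kif20a held with either marker mean in the fit, and Ccnb2 did not (adjusted p = 0.0536 and 0.0542). Rrm2, high in both groups, differed between them by -0.93 ± 0.37 (adjusted p = 0.301). Against day 7 none was called (5 had an unadjusted p under 0.05), beside 0.274% of all genes, and the count was 1 without day 7 replicate 3.

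At the same time of 14 days, UUO and folic acid differed in Ccnd1, which was 3.01-fold lower after UUO (log2 change -1.59 ± 0.18, adjusted p = 0.00164), 1 of 39 members, against 3.03% of all genes, 1.75% lower and 1.28% higher. Proximal tubule markers differed between these groups as well (8.29 against 5.62), and with their mean in the fit the call ended (-1.26, adjusted p = 0.100). The 2 other probe sets of Ccnd1 differed by -0.25 and -0.92. The mitotic median of that comparison was 0.09 and the S-phase median was 0.10. Over all 5 groups, the F test called 14 of 39 members, against 15.3% of all genes tested. They were Ccnd1, Rrm2, Mcm4 and 11 mitotic genes, led by Birc5 (adjusted p = 0.00211) and Ccnb2 (adjusted p = 0.00574). The F count fell to between 7 and 9 without day 3 replicate 1 or 3, UUO replicate 3 or any 1 of the uninjured arrays.

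Other genes of the same pathways were read from further lists, which were also drawn up with earlier results of these data known. Of 45 other mitotic genes, 35 were tested and 13 rose and none fell at day 3, beside 10.6% of all genes called higher and 6.39% lower. Of the 35, 5 would not have been tested without their day 3 arrays (Ect2, Pbk, Cdkn3, Cep55 and Aspm), so the count is a description. The median log2 change was 0.59 over the 42 measured. The smallest p belonged to Cep55, which recruits the abscission machinery and lay above the 40th percentile on the day 3 arrays alone (2.10 ± 0.29, adjusted p = 0.000404). Next came Anln, the anillin scaffold of the cleavage furrow (1.77 ± 0.26, adjusted p = 0.000765). Ckap2l, a spindle protein (1.32 ± 0.20, adjusted p = 0.000979), and Spc24, of the NDC80 complex at the kinetochore (1.07 ± 0.17, adjusted p = 0.00104), followed. The other probe set of Ckap2l, above the percentile on all 15 arrays, changed by 0.03 with overlapping arrays, and that of Anln, dim on all arrays, by -0.03. After UUO 2 rose and 1 fell, 8.57% of the 35 tested, below the 16.6% of all genes called, 9.07% higher and 7.52% lower. Spc24 was again higher (1.13 ± 0.17), Stmn1, a tubulin-binding protein, was higher (0.93 ± 0.26) and Gtse1 was lower (-0.51 ± 0.11).

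Of 30 other replication genes, 25 were tested and limma called none at day 3, with 1 at an unadjusted p under 0.05 and a median log2 change of 0.18 over the 27 measured. The smallest p belonged to Prim2, the large primase subunit (1.36 ± 0.53, adjusted p = 0.0982), and Orc6 of the origin recognition complex (0.58 ± 0.31, adjusted p = 0.229). None was called at day 7, day 14 or after UUO either, with 1, 3 and 2 at an unadjusted p under 0.05.

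Of 24 cell cycle transcription factors and regulators, 21 were tested, and 2 rose and 2 fell at day 3, a share of 19.0% that lies near the 17.0% of all genes called. Myc rose (1.75 ± 0.27, adjusted p = 0.00104) and so did Cdk4, the partner of cyclin D (1.05 ± 0.30, adjusted p = 0.0316). Mybl2 (-0.42 ± 0.12, adjusted p = 0.0312) and Foxm1 (-0.81 ± 0.24, adjusted p = 0.0351) fell, and both encode factors known to activate mitotic genes. The other probe sets of Foxm1 changed by -0.17, 0.04 and 0.19. Of 7 inhibitors of cyclin-dependent kinases, 6 were tested and 3 rose at day 3, beside 10.6% of all genes: Cdkn1b (p27, 1.20 ± 0.21, adjusted p = 0.00220), Cdkn2c (p18, 0.81 ± 0.16, adjusted p = 0.00436) and Cdkn1a (p21, 1.73 ± 0.50, adjusted p = 0.0344).

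Many members have more than 1 probe set, and those not used were read as a check. There were 39 others, for 27 members. Of the 14 members that rose at day 3, 7 had another probe set. Of those 7 probe sets, 6 changed above 0, and for 4 all day 3 arrays lay above uninjured kidney. For Cenpa the other probe set, dim on all arrays, went the other way by -0.27, with all day 3 arrays below. The 2 that were bright enough to be tested lay wholly above: the second probe set of Ccna2 changed by 1.86 and that of Rrm2 by 0.51, well under the 2.95 of the probe set used.

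Some members had disagreeing probe sets. The 2 other probe sets of Top2a changed by -0.15 and -0.18 at day 3, against 1.34 for the one used. The other probe set of Rrm1 changed by 0.36, against -0.36. The other probe set of Hmgb2 changed by 1.41 with no overlap, against 0.95. The 3 probe sets of Ccnd1 all lay below uninjured kidney at day 3, by -1.95, -1.81 and -3.21, and after UUO, by -2.44, -1.23 and -2.51. The first puts UUO lower than day 3, and the 2 others put day 3 lower.

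Markers of other cells that the sort could hold moved across the same groups. Of 11 proximal tubule markers tested, 6 fell at day 3, 3 at day 7, none at day 14 (0 at an unadjusted p under 0.05) and 8 after UUO. Their mean ran from 8.21 to 9.47 over the uninjured arrays, 6.35 to 6.51 at day 3, 5.52 to 8.28 at day 7, 6.97 to 9.08 at day 14 and 5.46 to 5.87 after UUO. UUO, where tubule markers were lowest, had a mitotic average of 0.29, against 1.06 at day 3. With this mean as a covariate, 10 members were called at day 3 in place of 15, and 6.54% of all genes tested in place of 17.0%. Of the 15 calls 9 held, and those of Mcm4, Ccna2, Cdk1, Cenpe, Tpx2 and Racgap1 ended, with log2 changes of 0.38, 1.05, 1.58, 0.54, 1.22 and 0.84.

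Of 16 macrophage markers tested, 4 rose at day 3, 12 at day 7, 11 at day 14 and 3 after UUO. The mean of the 17 measured ran from 5.06 to 5.40 over the uninjured arrays, 5.74 to 6.03 at day 3, 7.74 to 8.67 at day 7, 7.41 to 8.74 at day 14 and 6.08 to 6.32 after UUO. The groups with the highest macrophage markers, days 7 and 14, had mitotic averages of 0.22 and 0.21. With this mean as a covariate, the 11 calls at day 3 that remained were those other than Mcm4, Ccna2, Cenpe and Tpx2. The share of all genes called was 9.41% in that fit, in place of 17.0%. Of the defining genes, Lyz2 averaged 7.33 ± 0.14 at day 3 and 4.34 ± 1.40 in uninjured kidney, Adgre1 averaged 4.86 ± 0.05 and 4.45 ± 0.33, and Ptprc averaged 4.12 ± 0.24 and 4.38 ± 0.55. Lymphocyte markers averaged between 4.68 and 4.86 in every group, and of the 4 tested limma called 0 in any injured group against uninjured kidney (0 at an unadjusted p under 0.05).

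Fibroblast markers were high in all injured groups. The mean of 12 was 5.79 ± 0.32 in uninjured kidney, 9.03 ± 0.19 at day 3, 8.71 ± 0.30 at day 7, 8.23 ± 0.71 at day 14 and 9.68 ± 0.08 after UUO. The UUO group, with its mitotic average of 0.29, was the highest in these markers. Injured epithelium markers averaged 6.39 ± 0.10, 6.86 ± 0.27, 7.15 ± 0.73, 7.69 ± 0.40 and 6.70 ± 0.20 in the same order, highest at day 14. The part of tubule cells and macrophages in the values of single members was not tested beyond the covariates given.

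**Figure D5:**
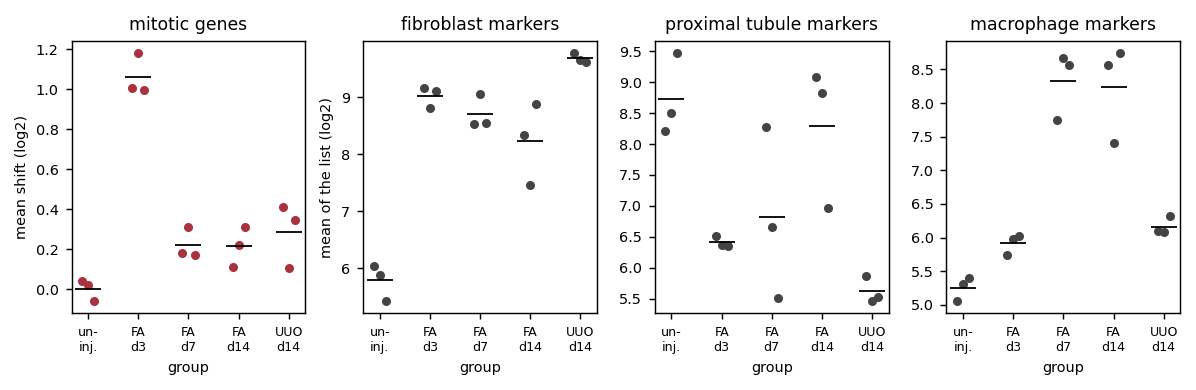
Points are arrays by group and lines are group means, for the mitotic class shift (log2 difference from uninjured kidney) and for the mean log2 value of the fibroblast, proximal tubule and macrophage markers. The mitotic genes are highest at folic acid day 3, the fibroblast markers after UUO, the proximal tubule markers in uninjured kidney and the macrophage markers at days 7 and 14.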

How the data were processed

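Amplified, biotin-labelled cDNA from the sorted fibroblasts was read on 15 arrays, per the labels' protocols. The deposited table gives log2 intensities for 45141 probe sets. The submitters' processing notes name RMA, affy and limma, with versions and roles not given in the sources used here. The values ran from 2.43 to 13.1 and were used without further normalization. The number of arrays limits the precision. Nothing pairs the samples, since their running numbers are not shared between groups, and the replicate numbers used here follow the order of the samples.

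Of the probe sets, 28898 named 1 gene in the platform annotation, 551 named several and 15692 were not listed. Each of the 17097 genes was read from its brightest probe set on average. A model with a mean for each group, run by lmFit and eBayes of limma 3.58.1 under R 4.3.3, used all 15 arrays and left 10 residual degrees of freedom. The 10 pairwise comparisons and an F test were each adjusted by Benjamini-Hochberg over 13523 genes, and all tests were 2-sided. The fit was tested on simulated data.

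Class averages are means over genes of the difference from the uninjured mean. Members with a call in any comparison, and Mki67, Top2a, Cdk1, Mcm2, Pcna, Ccnd1 and Ccne1 whatever their result, are given array by array. Up to 4 called genes of the other lists with the smallest p, or 2 where none was called, are named. The members, lists and rules were chosen with earlier results of these data known. Promoter windows were searched with Python 3.11.15, and plots were drawn with matplotlib 3.10.9. Alternatives were another normalization, variance model, array weighting, filter or choice of probe set, marker means as covariates, and each array left out.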

Additional observations from a re-analysis of the deposited data

Results flagged for a closer look

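The changes of 10 members against the shared uninjured arrays differed between 2 injured groups by limma's direct test, with 3 arrays a group. Groups of 3 arrays were not examined for outlying arrays. Values are log2 differences.

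From folic acid day 3 to day 14 the changes were -0.64 for Mcm4, -1.76 for Rrm2, 1.10 for Ccnd1, -1.18 for Ccna2, -1.61 for Ccnb2, -1.52 for Birc5, -1.58 for Kif20a, -1.26 for Nusap1, -1.07 for Racgap1 and -1.80 for Ube2c, with adjusted p between 0.00631 and 0.0487. From day 3 to day 7 they were -1.84 for Rrm2, -1.57 for Ccnb2, -1.54 for Birc5, -1.67 for Kif20a and -0.91 for Racgap1, with adjusted p between 0.0214 and 0.0412. UUO differed from day 3 by -1.34 for Ccnb2, -1.53 for Birc5 and -1.84 for Kif20a, with adjusted p between 0.0130 and 0.0408, and from folic acid day 14 by -1.59 for Ccnd1, with an adjusted p of 0.00164.

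Kif20a, Birc5 and Ccnb2 were called lower in all 3 other injured groups than at day 3, and Ccnd1 was the single member called higher at day 14 than at day 3.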

How the results depend on the processing

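The count of members called at folic acid day 3, 15 as reported, was between 10 and 22 under every other setting and between 11 and 18 without 1 array. Beside the count of 10, with the proximal tubule covariate, 6.54% of all genes tested were called, and beside that of 22, with array weights, 25.4%. Of those 15 calls, 10 held without any 1 array and 9 held under every other setting that tested them. The mitotic average at day 3 lay between 0.93 and 1.09 over 18 settings. Without 1 array, the counts were 1 to 3 at day 7, 0 to 2 at day 14, 2 to 6 after UUO, 1 to 1 for UUO against day 14, 0 to 5 for UUO against day 3, 0 to 1 for UUO against day 7, 0 to 5 from day 3 to day 7, 5 to 10 from day 3 to day 14 and 7 to 14 for the F test. As reported they were 1, 1, 4, 1, 3, 0, 5, 10 and 14 in that order.

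Other counts moved by over 1.5 times. With array weights they were 3 at day 7, 3 at day 14, 9 after UUO and 1 from day 3 to day 7. With the proximal tubule covariate they were 2 at day 7, 2 at day 14, 2 after UUO, 0 for UUO against day 14, 0 from day 3 to day 14 and 8 for the F test. With the macrophage covariate they were 0 at day 7, 0 at day 14, 2 after UUO, 0 from day 3 to day 7 and 0 from day 3 to day 14, and the change of Ccnd1 at day 14 turned to 0.11 (adjusted p = 0.98). With the mean of probe sets they were 2 at day 7 and 6 for UUO against day 3. The 60th percentile filter gave 2 after UUO, and from day 3 to day 7 quantile normalization gave 3 and no filter gave 3. The cause was not tested.

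Other settings were chosen after seeing the data. With only the 6 arrays compared, the counts were 8 after UUO, 1 for UUO against day 3, 0 from day 3 to day 7 and 1 from day 3 to day 14. Without the 3 injured arrays brightest in proximal tubule markers (day 7 replicate 1 and day 14 replicates 1 and 2), they were 2 at day 7, 2 at day 14, 2 from day 3 to day 7 and 0 from day 3 to day 14, with the lone day 14 array assumed to vary like the other groups. For single members, each result was counted once under each alternative. In these counts a call was lost 230 times, gained 20 times and turned 1 time, and direction and side were kept 912 times. They cover the 40 calls over all comparisons and the uncalled Mcm2, Pcna, Ccne1, Mki67 and Top2a at day 3. Gains were looked for in those uncalled members alone, so losses and gains cannot be set against each other. No paired analysis was possible because the groups share no replicate numbers in the labels. Without detection calls, members near the 40th percentile such as Cenpa have folds that the dim signal limits.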
